A study of Mus musculus with 5 samples.

Results

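Aminoacyl-tRNA synthetases are the enzymes that join each amino acid to its tRNA, and 36 genes of this family were followed among the 18349 genes listed with an mRNA abundance in MEL cells, a mouse erythroleukemia line. They were chosen by name. Of these, 20 encode cytosolic enzymes and 16, whose symbols end in 2, encode mitochondrial enzymes. Peaks and deletion sites were assigned to a gene where they lay on its strand inside its GENCODE M21 span on mm10. Each synthetase charges the tRNA for its own amino acid, and the charged tRNA is handed to the ribosome by elongation factor eEF1A in the cytosol. Mitochondria translate their own mRNAs with a separate set of synthetases, which are encoded in the nucleus and imported. Several cytosolic synthetases are held together in the multi-synthetase complex, and many synthetase genes belong to the set that transcription factor ATF4 turns on when amino acids run short. Gars and Kars, counted here as cytosolic, each encode both the cytosolic and the mitochondrial form of their enzyme.

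PABPC1 coats the poly(A) tails of mRNAs in the cytoplasm, and the RNA it touched was taken from 3 samples of MEL cells by CLIP-seq. This assay links proteins to RNA with ultraviolet light (here 400 mJ/cm2), trims the RNA (here 10 min of RNase), precipitates the protein with an antibody and sequences the attached fragments, called tags. The other 2 samples were mRNA-seq of poly(A)-selected RNA from the same line, and the labels name no treatment or genetic change in either set. The authors merged each set of samples, into 90337 peaks and 11907 deletion sites for CLIP-seq and into a single RPKM (reads scaled by gene length and library size) per gene for mRNA-seq. Replicate error is therefore unknown throughout, and no test between genes or groups was possible.

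The study's title names PABPC1 binding to sequences encoded in the genome, within mRNAs, as its subject. The number of reads behind the RPKM values was not given and was worked out from the steps between low values and annotated gene lengths, as 35251228. Pars2, the lowest member, corresponded to 870 reads and Rars to 25843 reads, and a pooled culture does not tell fewer expressing cells from less RNA per cell. Genes of the erythroid line were present, with Klf1 at 428 RPKM, Myb at 280 RPKM, Epor at 225 RPKM and Gata1 at 211 RPKM. Of the markers of other cell types, the leukocyte gene Ptprc stood at 11.8 RPKM and Col1a1 at 0.873 RPKM, and Col1a2, Cd3e and Alb were not listed. No control precipitation was analysed here, so peak heights have no background taken away.

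Ranked by number of deletions, the strongest PABPC1 contacts on synthetase mRNAs lay mostly near the end of the 3' UTR, often at a poly(A) signal. A deletion site is a base that tags skip, which happens where the cross-linked protein stood, so it places a contact more closely than a peak. The strongest 3' UTR site of each of 12 of the 23 genes with one is shown first, because these bases place the contact. They are not the 12 strongest, since Hars, whose sequence is not shown, had 73 deletions at its strongest site. The 3' UTR sites of Yars, Sars, Qars, Farsb and Farsa lie in or just upstream of AATAAA, the hexamer that directs cleavage and polyadenylation. The stretches shown for the other genes do not hold it. Ranked by the share of covering tags with a deletion, the order differed. Dars at 80.0%, a Qars CDS site at 38.9% and Aars at 33.3% stood high, without AATAAA within 20 nt. Among sites with AATAAA within 20 nt the highest share was 15.5%, in Yars. Each line gives the gene, chromosome, mm10 position of the deleted base and strand, then the mRNA sequence written as DNA from GENCODE M21 transcripts, 5' to 3', with the deleted base in capitals.
Yars (4, 129219216, plus strand): ccactgtcaagttcAaataaagtgtctga
Sars (3, 108426633, minus strand): ggtgaagccacgcaAtaaagcatctctgg
Mars (10, 127296269, minus strand): acacaaagtcacttTactggacatggaca
Aars (8, 111055508, plus strand): tgccagcctgaggcTttaggtctgcagag
Qars (9, 108515916, plus strand): ccacactccgtttcAataaagaataacta
Cars (7, 143557782, minus strand): gccctgatcatgttTacagctgttctcac
Eprs (1, 185428304, plus strand): taaattaacagtggAaaatacttttctgt
Gars (6, 55079432, plus strand): gcatccagggacggTttttcctcagtggc
Farsb (1, 78425109, minus strand): tgtgcgttaatgttTaataaagtgaaatg
Farsa (8, 84869211, plus strand): ctgcaggccagctgTtttaataaagtggg
Iars2 (1, 185286749, minus strand): aatatggttactttCaatgtggcagaatg
Iars (13, 49734217, plus strand): gggtaatttgatggAatattttacgtttg

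Fewer deletion sites lay in the coding sequence (CDS), and all of these were in cytosolic genes. The strongest CDS site is shown for 5 of the 7 genes with one, for comparison with the 3' UTR sites above. These were not chosen by strength. Of these 5 stretches, the Eprs one alone holds AATAAA.
Qars (9, 108515838, plus strand): aagaagacccaggcAaaatatgaactgaa
Rars (11, 35809164, minus strand): tctgtgactacattTacgagctggcaacc
Sars (3, 108437540, minus strand): caagctgaagaattTatgcagcaaaacta
Gars (6, 55077024, plus strand): gccagaaccaagagTttatgccatttgtc
Eprs (1, 185407621, plus strand): gaagaaagaaaaagAaaataaatctgaaa

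Cytosolic synthetase mRNAs were the more abundant group and mitochondrial synthetase mRNAs the less abundant, with Lars2 as the exception. RPKM, which is per length, ran from 55.7 (Cars) to 454 (Nars) with a median of 162 among the 20 cytosolic genes, and from 7.98 (Pars2) to 1543 (Lars2) with a median of 23.1 among the 16 mitochondrial genes. Without Lars2 the highest mitochondrial value was 152 RPKM (Tars2) and the median was 20.6 RPKM. Matching the genes by amino acid gave 17 pairs, with Eprs and Fars2 in 2 each, and in 15 of 17 the cytosolic gene had the higher RPKM. The exceptions were Cars at 55.7 RPKM against Cars2 at 66.9 RPKM, and Lars at 199 RPKM against Lars2 at 1543 RPKM. Eprs, which carries the glutamate and the proline enzyme in 1 protein, stood at 332 RPKM, against 8.33 RPKM for Ears2 and 7.98 RPKM for Pars2. Apart from Lars2, the mitochondrial genes Aars2, Cars2 and Tars2 lay inside the cytosolic range and the rest below it.

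All 36 synthetase genes held a PABPC1 peak with its midpoint in an exon, against a background of 96.6% of protein-coding genes with RPKM of at least 1. Peaks of at least 74 tags were found in 33 of 36 genes against 55.3% of protein-coding genes. The 3 without were Ears2, Mars2 and Nars2, all mitochondrial genes under 20 RPKM. Such peaks become more frequent with abundance, from 41.2% of protein-coding genes at 5 to 20 RPKM to 93.6% at 100 RPKM and above. In those bins they were found in 3 of 6 mitochondrial and 16 of 16 cytosolic synthetase genes, near the background at the same abundance. At 20 to 100 RPKM they were found in 4 of 4 cytosolic and 8 of 8 mitochondrial genes against 75.6%.

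Summed height, the heights of all exonic peaks of a gene added up and not divided by length, was also greater in cytosolic genes. Height is given in tags, but it was not read as the number of all tags in a peak. Within the Nars peak of height 953, sites 38, 327 and 616 nt before the annotated end were covered by 929, 325 and 291 tags. Summed height ran from 220 tags (Vars) to 3495 tags (Sars) with a median of 745 tags in cytosolic genes. In mitochondrial genes it ran from 18 tags (Ears2) to 640 tags (Lars2) with a median of 198 tags. The cytosolic gene had the greater summed height in 16 of 17 pairs, with Lars at 566 tags against Lars2 at 640 tags as the exception. Across the 36 genes log2 summed height and log2 RPKM were correlated with Pearson's r of 0.75 and Spearman's rho of 0.81, or 0.79 and 0.83 without Lars2. Over 9868 protein-coding genes with a peak they were 0.67 and 0.66. These are descriptions over genes that share the same pooled libraries.

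**Figure D1:**
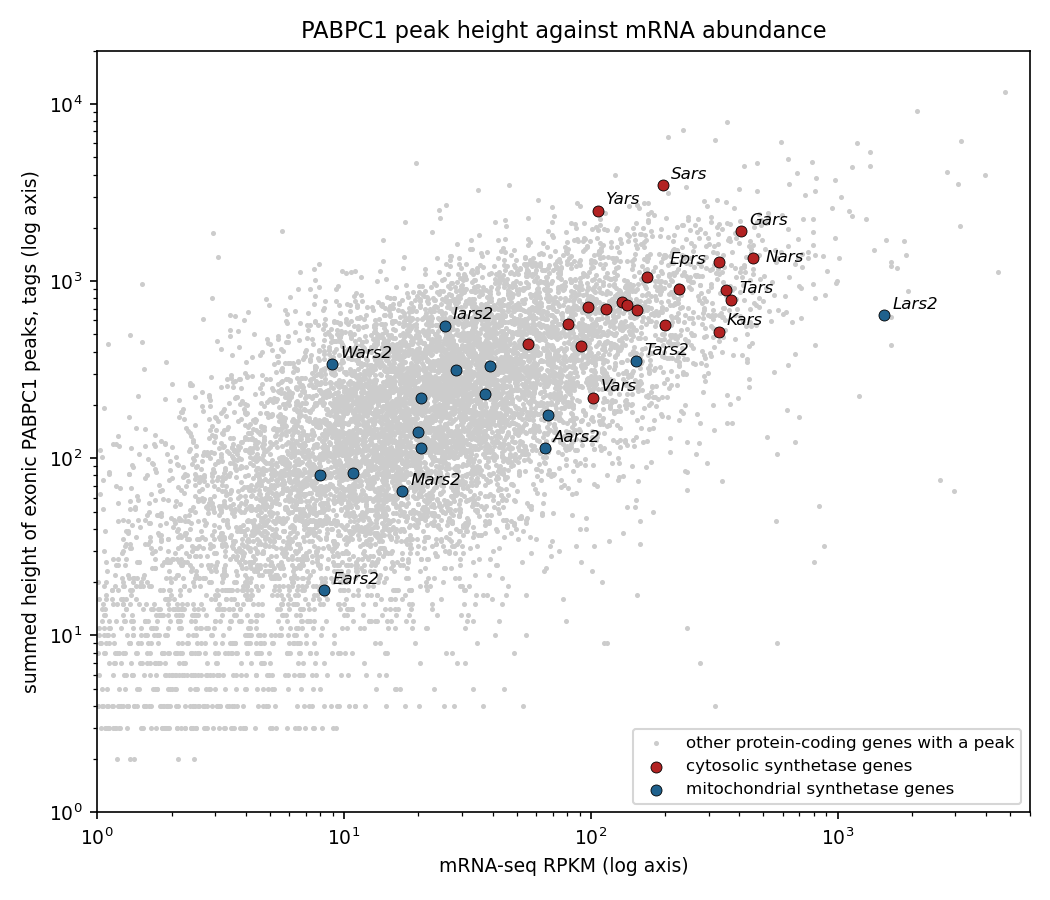
Summed height of exonic PABPC1 peaks (tags, log axis) against mRNA-seq RPKM (log axis), 1 point a gene, for cytosolic synthetase genes (red), mitochondrial synthetase genes (blue) and other protein-coding genes with a peak (grey). Sars and Yars lie at the upper edge of the grey cloud at their abundance, while Lars2, at 1543 RPKM, lies below most of it.

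Set against abundance but not length, the cytosolic median lay below that over all protein-coding genes and above that of equally abundant ones. Single members lay far to either side. The log2 ratio of (summed height + 1) to (RPKM + 1) had a median of 2.23 in cytosolic genes and 2.68 in mitochondrial genes (2.76 without Lars2), against 2.78 over 10211 protein-coding genes with RPKM of at least 1, whose quartiles were 1.70 and 3.75. Over protein-coding genes this median was 3.27 at 5 to 20 RPKM, 2.77 at 20 to 100 RPKM and 1.73 at 100 RPKM and above, so members were also set beside genes of the same RPKM. At 100 RPKM and above the median log2 ratio was 2.07 for 16 cytosolic genes and 1.73 for all protein-coding genes, and 10 of the 16 lay above 1.73. This gap is not corrected for length. The median exon length was 2199 nt in protein-coding genes of that bin and 2918 nt over all cytosolic genes. Median height per kb of exons was lower over all cytosolic genes, 4 of which lie below 100 RPKM, than over that bin. Whether the gap remains after correction for length at equal abundance was not tested. At 20 to 100 RPKM it was 2.84 for 4 cytosolic genes and 2.83 for 8 mitochondrial genes, against 2.77 for all protein-coding genes. At 5 to 20 RPKM it was 2.79 for 6 mitochondrial genes against 3.27, and 1 of the 6 lay above. Counting only peaks of at least 74 tags turned the order, with medians of 1.98 in cytosolic and 1.88 in mitochondrial genes against 0.93 over protein-coding genes. In the 17 pairs the log2 ratio was higher in the cytosolic gene in 8 and in the mitochondrial gene in 9.

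Sars and Yars, the seryl- and tyrosyl-tRNA synthetases, stood out among the cytosolic genes. Sars had a summed height of 3495 tags at 195 RPKM, a log2 ratio of 4.15, and Yars had 2501 tags at 107 RPKM, a log2 ratio of 4.54. Both came from a single tall peak in the 3' UTR. The Sars peak (chr3:108426489-108426986, minus strand) reached 3222 tags, or 92.2% of the gene's summed height, and ranked 19 among all 90337 peaks. The Yars peak (chr4:129218645-129219323, plus strand) reached 2405 tags, or 96.2% of the gene's summed height, and ranked 33. The next peaks of these genes were 76 tags in Sars and 51 tags in Yars, both in the CDS. Within the 1125 protein-coding genes at 100 RPKM and above, the log2 ratio lay at percentile 98.8 for Sars and 99.6 for Yars. These genes and those at the other end were named for their place in this order, which is given as a description.

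Among mitochondrial genes the highest log2 ratios were those of Wars2 at 5.10, Iars2 at 4.40 and Rars2 at 3.43, the enzymes for tryptophan, isoleucine and arginine. Wars2 had a summed height of 340 tags at 8.95 RPKM with a tallest 3' UTR peak of 251 tags. Iars2 had 561 tags at 25.6 RPKM with a tallest 3' UTR peak of 408 tags, and Rars2 had 316 tags at 28.4 RPKM with one of 231 tags. Part of Iars2 lies opposite Rab3gap2 on the other strand, and 36.8% of its 31-nt words are shared with that gene in antisense. Peaks were assigned by strand, and the effect of that overlap on RPKM was not tested.

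The lowest log2 ratios were those of Lars2 at -1.27, Kars at 0.66, Aars2 at 0.80, Ears2 at 1.03 and Tars at 1.09. Kars, the lysyl enzyme, had 519 tags at 329 RPKM, and Tars, the threonyl enzyme, had 786 tags at 368 RPKM. Aars2, the mitochondrial alanyl enzyme, had 114 tags at 65.1 RPKM. Ears2, the mitochondrial glutamyl enzyme, had 3 exonic peaks of at most 8 tags, and its tallest ranked 46033 in the list.

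Lars2, the mitochondrial leucyl enzyme, had the highest RPKM of the family and ranked 50 of 18349 genes, yet its CDS held no peak. Its 5 exonic peaks, of 336, 112, 100, 87 and 5 tags, all lay in the last 986 nt of the mRNA, which form its 3' UTR. The tallest (chr9:123461923-123462038, plus strand) had its midpoint at nt 3210 of the transcript. Of the 3864 words of 31 nt in Lars2 mRNA, 42 occur also in another gene in the same sense, at nt 3172 to 3212, 3233 to 3266 and 3273 to 3313 for AA474408 and at nt 3278 to 3329 for Gm15564. Gm15564 was listed at 1639 RPKM with no exonic peak, and AA474408 at 0.484 RPKM. How far shared sequence accounts for the Lars2 RPKM or its tallest peak was not tested. 

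**Figure D2:**
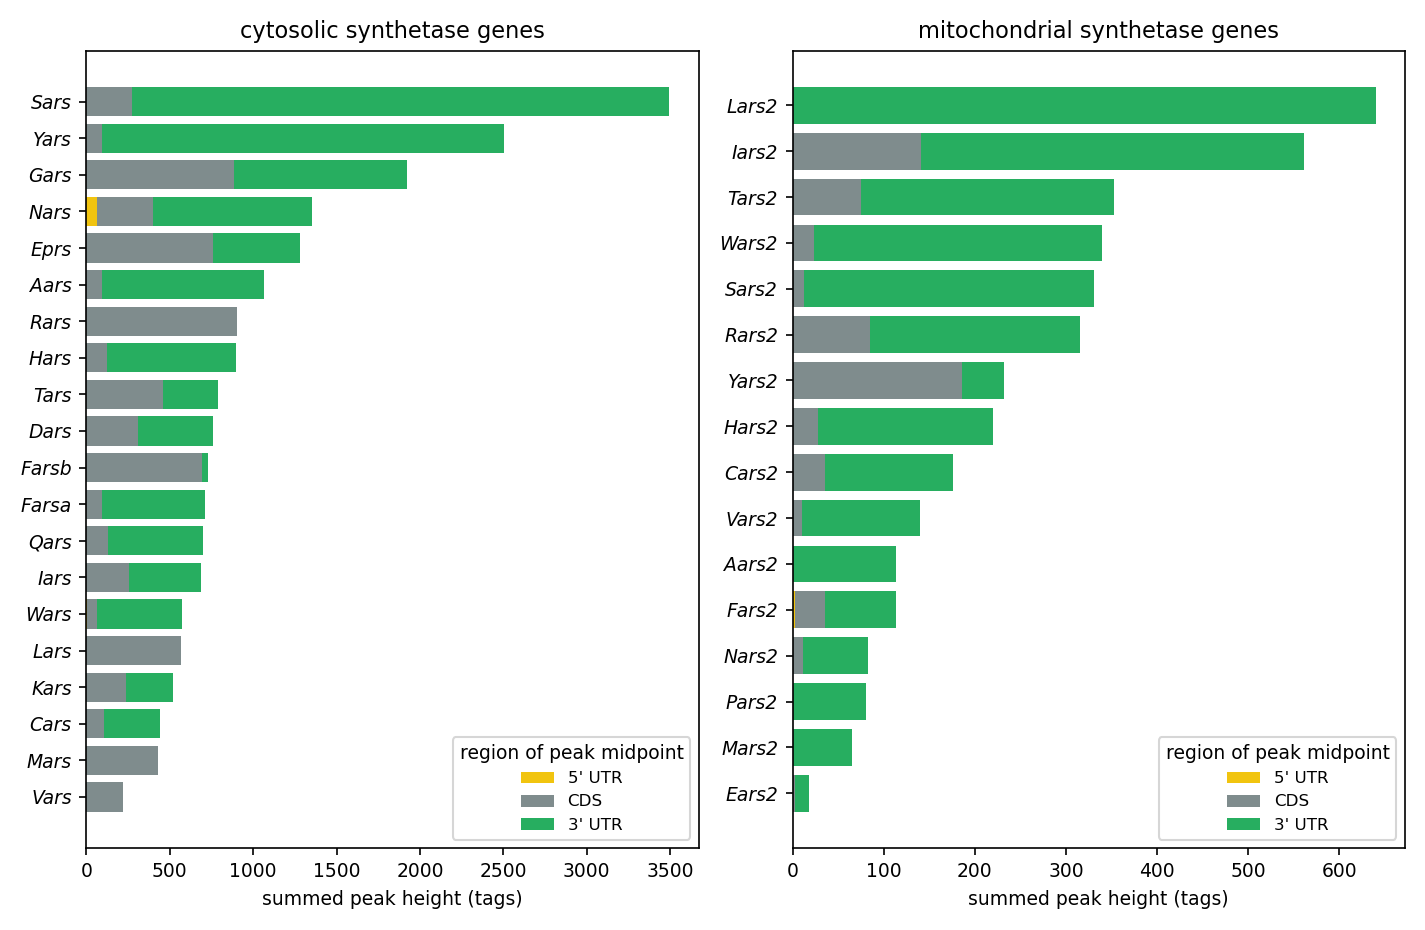
Summed peak height (tags) of each synthetase gene, split by the region that holds the peak midpoint (5' UTR yellow, CDS grey, 3' UTR green), cytosolic genes left and mitochondrial genes right, on separate scales. The 3' UTR part of Sars (3222 tags) and Yars (2405 tags) exceeds the whole of every mitochondrial gene, and Rars, Lars, Mars and Vars are all grey.

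Most peaks of cytosolic genes lay in the CDS, while most of their summed height lay in the 3' UTR. Of 258 exonic peaks in cytosolic genes 231 (89.5%) lay in the CDS, 25 (9.69%, 95% exact binomial interval 6.37 to 14.0) in 3' UTRs and 2 in 5' UTRs. Of 104 in mitochondrial genes 53 (51.0%) lay in the CDS and 50 (48.1%, 38.2 to 58.1) in 3' UTRs. Intervals cover counting error only, and peaks of 1 gene are not independent. In cytosolic genes the 3' UTR held 65.4% of a summed height of 20524 tags and makes up 21.1% of exon length. In mitochondrial genes it held 82.9% of a summed height of 3783 tags and makes up 45.2%. Protein-coding genes at 100 RPKM and above showed a like pattern, with 66.9% of peaks in the CDS. There the 3' UTR held 69.3% of the height and makes up 37.4% of exon length. At 20 to 100 RPKM these shares were 49.0%, 79.8% and 42.5%. Peak height also differed by region. The median 3' UTR peak was 334 tags and the median CDS peak 12 tags in cytosolic genes, against 13.5 and 6 tags in mitochondrial genes.

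The 2 groups also differ in the build of their mRNAs, which bears on these shares. The median 3' UTR is 364 nt in cytosolic and 954.5 nt in mitochondrial genes, and the median CDS is 2076 nt and 1615.5 nt. In single genes the 3' UTR share of height exceeded the 3' UTR share of exon length in 14 of 20 cytosolic and 15 of 16 mitochondrial genes. This count was not made over all protein-coding genes, but their pooled shares lie the same way. Of their summed height 77.8% lay in 3' UTRs, which make up 45.0% of their exon length. The 7 exceptions among synthetase genes were Tars, Farsb, Rars, Lars, Mars, Vars and Yars2. All but Tars had their tallest peak centred in the CDS close to the stop codon, and each of those peaks ran on into the 3' UTR, as described next.

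**Figure D3:**
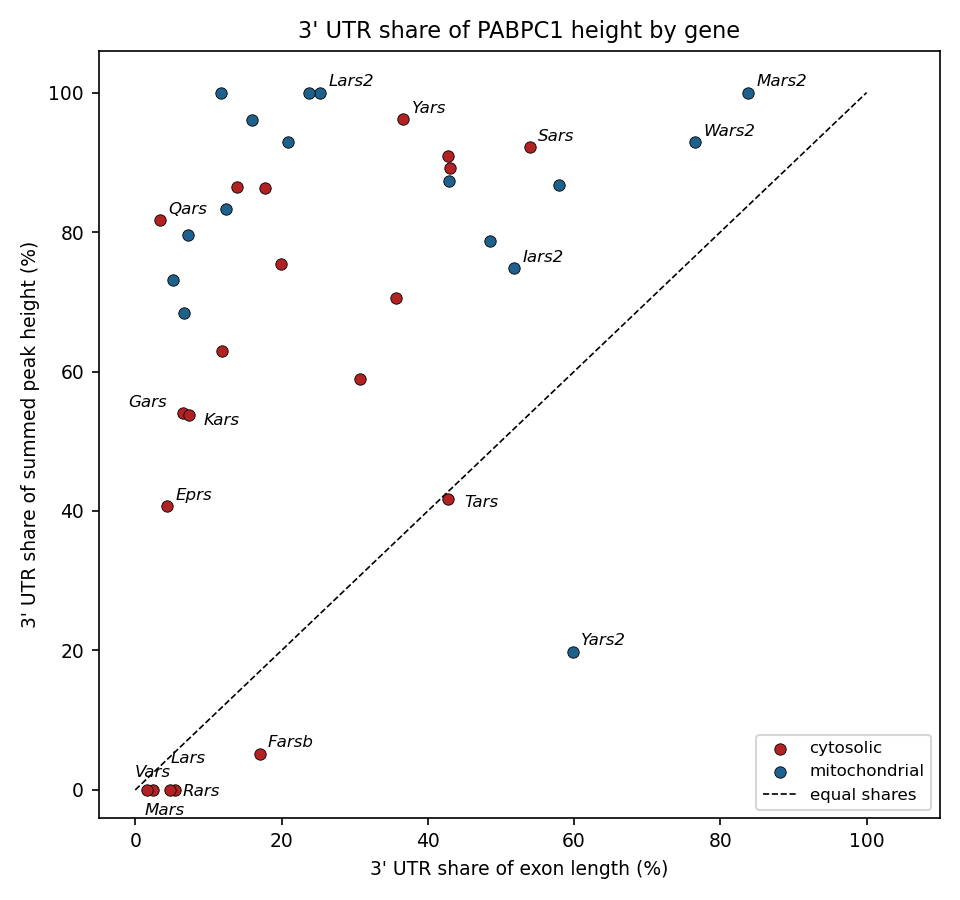
Share of summed peak height in the 3' UTR (%) against the share of exon length that is 3' UTR (%), 1 point a gene, cytosolic red and mitochondrial blue, with equal shares dashed. In 29 of 36 genes the height share lies above the line, and Rars, Lars, Mars and Vars sit at 0 because their tallest peak is centred in the CDS although it reaches the 3' UTR. The same count over all protein-coding genes was not made.

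The tallest peak of a synthetase mRNA was usually centred in the 3' UTR, and in cytosolic genes it was mostly wide and ended near an annotated transcript end. It was centred in the 3' UTR in 30 of 36 genes, 15 of 20 cytosolic and 15 of 16 mitochondrial, against 90.2% of protein-coding genes with a peak. At 100 RPKM and above it was centred there in 12 of 16 cytosolic genes against 84.3%. It touched the 3' UTR in 36 of 36 against 94.5%, which lies close to that background. Its 3' edge lay within 50 nt of an annotated transcript end in 16 of 20 cytosolic and 8 of 16 mitochondrial genes, against 57.9%. It held AATAAA or ATTAAA, read on the mRNA strand, in 19 of 20 cytosolic and 9 of 16 mitochondrial genes, against 69.1%. Its median width was 374 nt in cytosolic and 145 nt in mitochondrial genes, against 150 nt. Widths, the share ending within 50 nt of an annotated end and the share with a signal grow with abundance in protein-coding genes. At 100 RPKM and above the median width was 287 nt, 64.1% ended within 50 nt of an annotated end and 76.1% held a signal. The median tallest peak was 321.5 tags, and the median of the other 326 exonic peaks was 11 tags with a maximum of 412.

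The tallest peaks after Sars and Yars belonged to Gars at 1039 tags, Nars at 953 tags and Hars at 774 tags, the glycyl, asparaginyl and histidyl enzymes, all in the 3' UTR. Gars had a summed height of 1922 tags at 405 RPKM, Nars 1350 tags at 454 RPKM and Hars 896 tags at 351 RPKM. Their log2 ratios were 2.24, 1.57 and 1.35, against a median of 1.73 over protein-coding genes at 100 RPKM and above. Gars thus lay above that median, and Nars and Hars below it. Aars, the alanyl enzyme, had 1062 tags at 169 RPKM, a log2 ratio of 2.64. Its second peak of 412 tags also lies in an exon of Exosc6 on the same strand, and without it Aars had 650 tags and a log2 ratio of 1.93. Of the 31-nt words of Iars 17.4% occur also in the pseudogene Gm4849, which held no peak and had no listed RPKM.

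The cytosolic genes not yet described lay closer together. Dars had 760 tags at 134 RPKM, Farsb 730 tags at 140 RPKM, Farsa 710 tags at 97.0 RPKM, Qars 700 tags at 115 RPKM and Iars 685 tags at 154 RPKM. Wars, the tryptophanyl enzyme, had 573 tags at 80.6 RPKM, Lars 566 tags at 199 RPKM, Cars 440 tags at 55.7 RPKM and Mars 428 tags at 91.2 RPKM. Vars, the valyl enzyme, was the lowest with 220 tags at 102 RPKM and a log2 ratio of 1.11. Its peak over the stop codon had a height of 157 tags.

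The mitochondrial genes not yet described had summed heights of 65 to 353 tags. Tars2 had 353 tags at 152 RPKM, Sars2 331 tags at 38.9 RPKM, Yars2 232 tags at 37.2 RPKM, Hars2 220 tags at 20.6 RPKM and Cars2 176 tags at 66.9 RPKM. Vars2 had 140 tags at 19.9 RPKM, Fars2 114 tags at 20.6 RPKM, Nars2 83 tags at 10.9 RPKM, Pars2 80 tags at 7.98 RPKM and Mars2 65 tags at 17.2 RPKM. Mars2, the mitochondrial methionyl enzyme, has a 3' UTR of 9470 nt, or 83.8% of its exon length, and its 4 peaks all lay there with at most 28 tags each. Hars2 and Hars overlap at their 5' ends on opposite strands, and each peak was given to the gene on its own strand.

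The multi-synthetase complex is built from 8 of these enzymes. Its genes have shorter 3' UTRs than the other 12 cytosolic genes and held a smaller share of their summed height there. In complex members (Eprs, Iars, Lars, Mars, Qars, Rars, Kars and Dars) 127 of 133 peaks, or 95.5%, lay in the CDS and 38.5% of the height lay in the 3' UTR. In the other cytosolic genes 83.2% of 125 peaks lay in the CDS and 76.1% of the height lay in the 3' UTR. The median 3' UTR of complex members is 189 nt against 843 nt in the other cytosolic genes. It makes up 8.28% of exon length in complex members and 29.9% in the others, so both height shares exceeded the length shares. The tallest peaks of Mars, Rars and Lars run into the 3' UTR but count as CDS by their midpoint. Among the other genes, the 3' UTR peaks of Sars and Yars alone had heights of 3222 and 2405 tags. The median log2 ratio was 2.07 in complex members against 2.51 in the other cytosolic genes. Eprs, with the longest CDS of the complex, held 30 exonic peaks. The 29 in the CDS had a summed height of 759 tags and the 1 in the 3' UTR a height of 520 tags. Rars held 14 peaks with a tallest of 280 tags, a summed height of 902 tags at 227 RPKM and a log2 ratio of 1.98. By catalytic class the medians differed less, at 2.18 for 10 cytosolic class I enzymes and 2.24 for 11 of class II, where Eprs has a domain of each and counts in both.

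The CDS of cytosolic genes was dense in small peaks. It held 4.90 peaks per kb in cytosolic and 1.74 in mitochondrial genes. At 100 RPKM and above it held 5.34 peaks per kb in cytosolic genes against 3.98 in all protein-coding genes. Of those 16 cytosolic genes 15 held 5 or more CDS peaks against 44.6% of protein-coding genes in that bin, whose median CDS is 1050 nt. At 20 to 100 RPKM 3 of 4 cytosolic and 4 of 8 mitochondrial genes did against 34.1%, and at 5 to 20 RPKM 0 of 6 mitochondrial genes did against 14.3%. For height the direction depended on the summary. Summed over genes, the 16 cytosolic genes had 163 tags per kb of CDS against 183 tags per kb in protein-coding genes of that bin, while the median gene had 164 against 104 tags per kb. Lars had the most CDS peaks after Eprs, with 27, none above 150 tags, and Iars had 25, none above 32 tags. Mars was the reverse, with a single exonic peak of 428 tags that covers the end of its CDS and all 73 nt of its 3' UTR. Most of that 3' UTR lies opposite Ddit3 on the other strand.

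**Figure D4:**
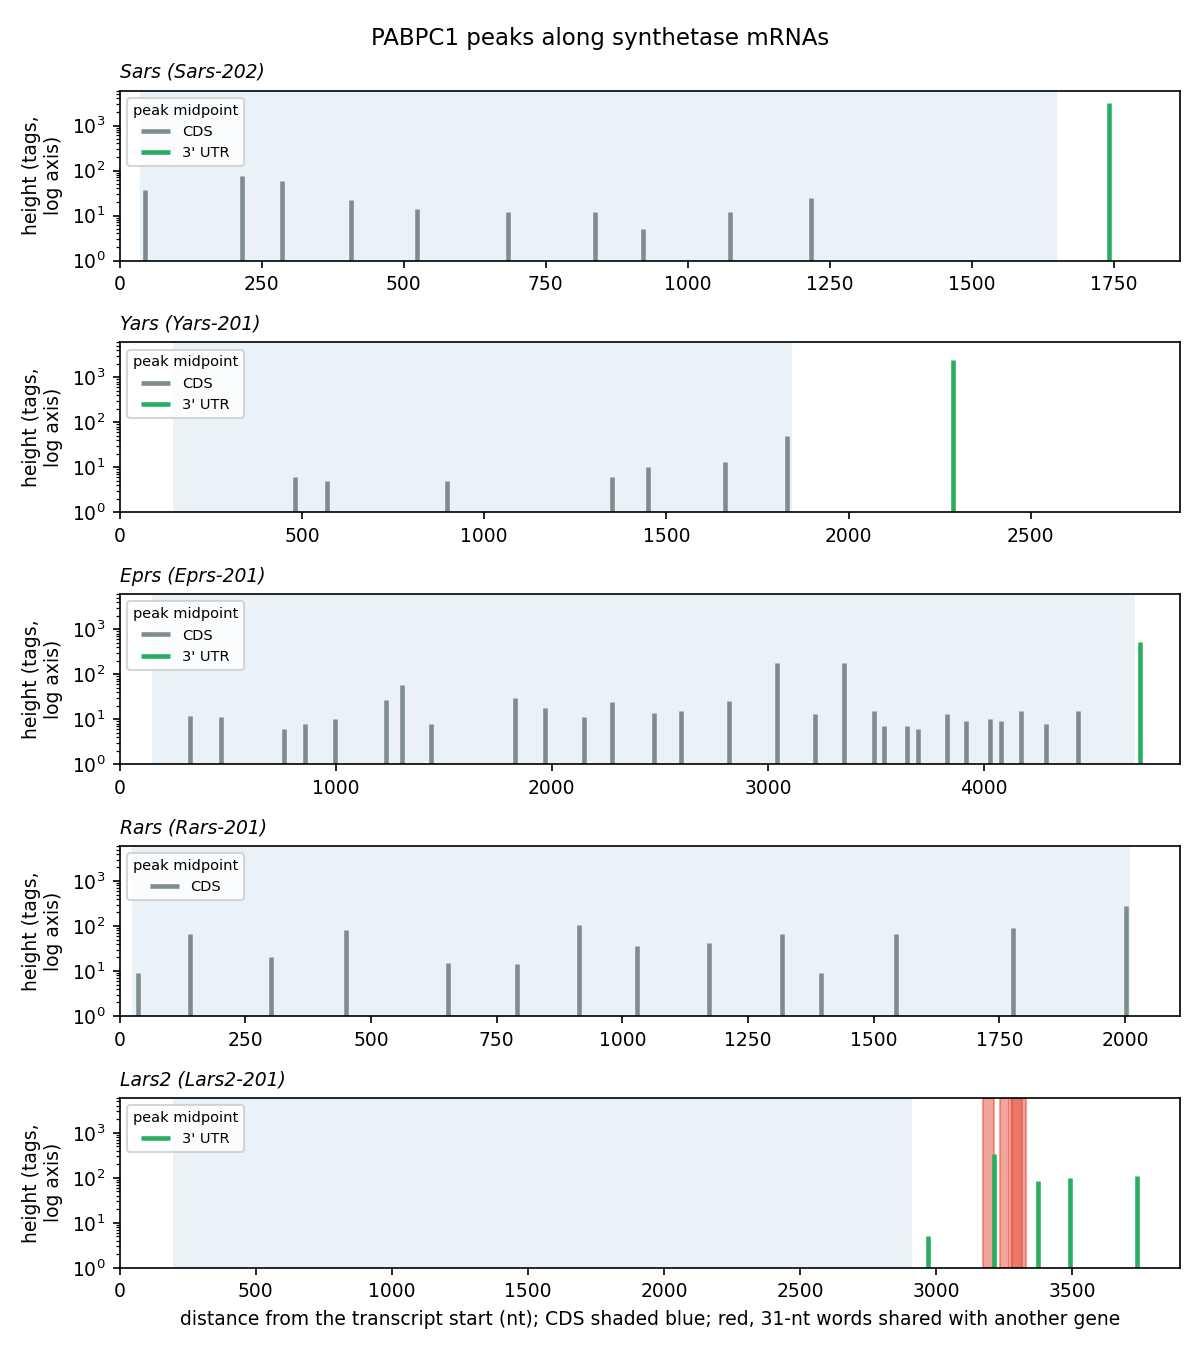
Height (tags, log axis) of each exonic PABPC1 peak at its midpoint along 5 synthetase mRNAs, from the transcript start (nt), with the CDS shaded blue, CDS peaks grey and 3' UTR peaks green. Sars and Yars show 1 tall 3' UTR peak over a row of small CDS peaks, Eprs and Rars a dense row of CDS peaks, and Lars2 peaks only past its CDS, with the stretches shared with other genes in red.

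Deletion sites were found in 24 of 36 synthetase genes, 18 of 20 cytosolic and 6 of 16 mitochondrial, against 37.0% of protein-coding genes. At 100 RPKM and above they were found in 15 of 16 cytosolic genes against 78.0%. At 20 to 100 RPKM they were found in 3 of 4 cytosolic and 4 of 8 mitochondrial genes against 48.6%, and at 5 to 20 RPKM in 1 of 6 mitochondrial genes against 25.2%. The cytosolic genes without a site were Lars and Wars. The mitochondrial genes with a site were Cars2, Iars2, Sars2, Tars2, Wars2 and Yars2.

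The 81 sites carried 2137 deletions, 1994 in cytosolic and 143 in mitochondrial genes. Of the 81, 68 (84.0%, 95% exact binomial interval 74.1 to 91.2) lay in 3' UTRs and 13 (16.0%, 8.83 to 25.9) in the CDS, against 90.0% and 9.24% of 9723 sites in protein-coding genes. All 81 lay in a peak and 75 in the tallest peak of their gene. Adjoining bases count separately, and joining sites within 10 nt left 53 runs. Peaks and sites come from the same tags.

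The Yars site listed first above had the most deletions of the family, in 361 of 2332 tags, and by that number it ranked 23 among all deletion sites. Its base is the A before AATAAA, although the nearest transcript end annotated downstream lies 391 nt away. The Sars site followed with 157 of 1519 tags, inside AATAAA and 21 nt before an annotated end. The Qars site had 63 of 548 tags, also inside AATAAA and 25 nt before the end. The Mars site had 116 of 380 tags, or 30.5%, 47 nt before the end with no AATAAA within 20 nt. It lies where the end of Mars overlaps Ddit3 on the other strand by 68 nt. Ddit3 had a tallest peak of 2303 tags, and the effect of that overlap on the Mars peak and site was not tested.

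The remaining 3' UTR sites shown above had 22 to 90 deletions each. Aars had 90 of 270 tags at a base 2156 nt before the nearest annotated end, and Cars, the cysteinyl enzyme, had 58 of 316 tags 75 nt before it. Eprs had 58 of 413 tags and Gars 36 of 240 tags. The phenylalanyl enzyme is made of the products of Farsa and Farsb, and both mRNAs had a site just upstream of AATAAA: 29 of 392 tags in Farsa and 36 of 416 tags in Farsb, 46 and 41 nt before the end. Iars2 had 29 of 398 tags at a base 2023 nt before the end, and Iars had 22 of 214 tags.

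Nars held the most sites, 13, spread over its 3' UTR from 23 to 676 nt before the annotated end, with at most 20 deletions each. Hars had 73 of 589 tags at its strongest site, 67 nt before the end. Tars2, the mitochondrial threonyl enzyme, had 19 of 245 tags 9 nt before the end, and Wars2 had 15 of 247 tags at a base 1868 nt before it. Kars (13 of 140 tags), Tars (17 of 190 tags) and Cars2 (11 of 85 tags) had weaker sites. Vars, Sars2 and Yars2 had sites of 6 deletions. Dars, the aspartyl enzyme, had a site at chromosome 1, position 128363861, deleted in 20 of 25 tags, or 80.0%, within 20 nt of a run of 6 A, and whether the cells' genome differs there was not tested.

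As a group, the 3' UTR sites lay close to the transcript end and to poly(A) signals. The median distance along the mRNA to the nearest annotated end downstream was 73.5 nt for 68 synthetase sites and 124 nt for 3' UTR sites of all protein-coding genes, and 55.9% against 46.8% lay within 100 nt. AATAAA or ATTAAA, hexamers that can overlap but not coincide, lay within 50 nt of 48 of the 68 sites, or 70.6%, against 53.8% for all protein-coding genes. Over all 33111 positions of the 3' UTRs of the 36 synthetase genes the share was 17.7%. That baseline is not limited to peaks or to genes with a site. Mars2, which had no site, gives 9470 of its positions. Such a signal lay near a 3' UTR site in 21 of 23 genes with one, and the strongest 3' UTR site lay within 100 nt of an end in 16 of 23. The 10 sites over 1000 nt before the nearest annotated end belonged to Aars, Tars, Iars2 and Wars2.

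AATAAA lay near many synthetase sites, while the other A-rich hexamers searched lay near few or none. Searching 20 nt either side on the mRNA strand, AATAAA was found at 31 of 81 synthetase sites, or 38.3%, in 17 genes, against 3016 of 9723 sites in all protein-coding genes. The share over all positions of the synthetase genes' own exons, in genes with or without a site, was 5.37% in 3' UTRs and 0.602% in the CDS. ATATAA was at 0 of 81 against 13.1%, with own-position shares of 0.979% in 3' UTRs and 0.139% in the CDS. AAAAAA, which can overlap AATAAA, was at 2 of 81, or 2.47%, against 11.6%, with own-position shares of 2.44% in 3' UTRs and 0.818% in the CDS. ATTAAA was at 3 of 81, or 3.70%, against 4.93%, with own-position shares of 2.50% and 0.926%. The deleted base was T at 39 sites, A at 36, C at 3 and G at 3. The median deleted share was 7.63% of the covering tags against 10.8%. With 81 sites in 24 genes, neighbouring sites share their window, and no test of these differences was made.

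**Figure D5:**
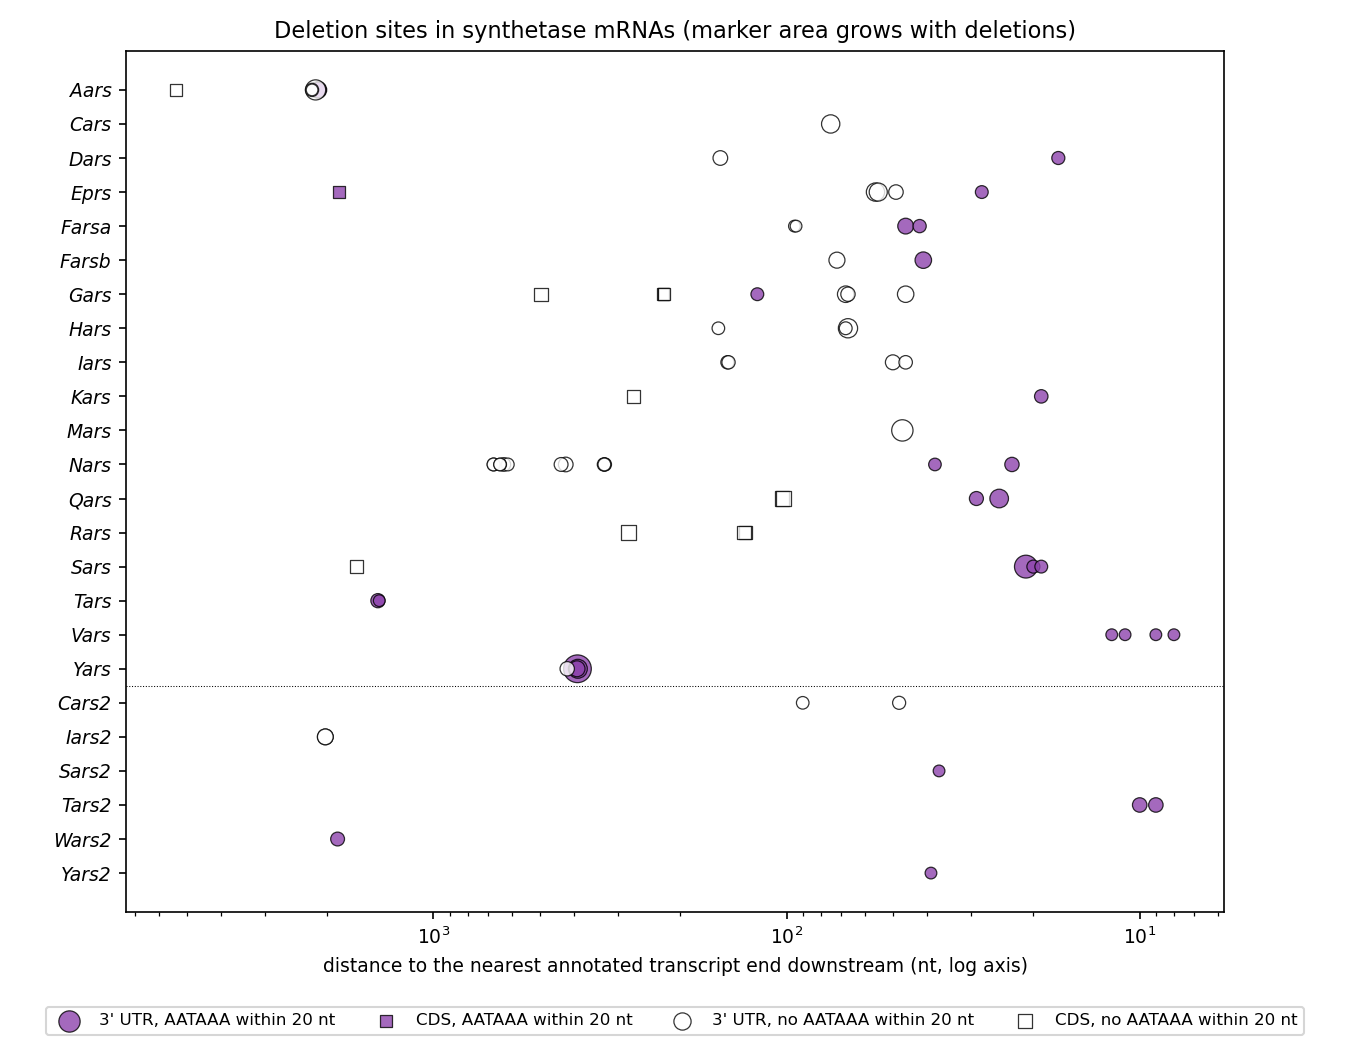
Distance from each of the 81 deletion sites to the nearest annotated transcript end downstream (nt, log axis, end at the right) by gene, cytosolic genes above the dotted line and mitochondrial genes below it. Circles are 3' UTR sites and squares CDS sites, purple marks AATAAA within 20 nt, and marker area grows with deletions. Most circles lie within 100 nt of the end, and squares occur in cytosolic genes only.

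CDS sites were found in 7 of 36 synthetase genes, 7 of 20 cytosolic and 0 of 16 mitochondrial, against 4.97% of protein-coding genes. All 7 stood at 100 RPKM or above, where 16 cytosolic and 2 mitochondrial synthetase genes lay and where the share over protein-coding genes was 19.0%. That share was 5.98% at 20 to 100 RPKM and 1.50% at 5 to 20 RPKM, where the remaining 4 cytosolic and 14 mitochondrial genes lay. These shares are not corrected for length. At 100 RPKM and above the median CDS is 2076 nt in the 16 cytosolic genes and 1050 nt in protein-coding genes. Of the 13 sites 10 lay within 350 nt of the stop codon and 7 in the tallest peak of their gene. The Qars site, deleted in 21 of 54 tags, lay 8 nt before the end of the CDS. Rars, which had sites in the CDS alone, had 20 of 89 tags at its strongest.

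Sars and Eprs were among the genes with a CDS site far from the stop codon. The Sars site had 13 of 43 tags under a CDS peak of 76 tags, 1435 nt before the end of the CDS. The Eprs site had 6 of 136 tags. The Eprs site lies in an A-rich stretch with AATAAA, under a CDS peak of 177 tags. Gars had 12 of 57 tags under a CDS peak of 187 tags, 341 nt before the end of the CDS, and 3 adjoining bases with 6 deletions each nearer to it.

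Genes that work with the synthetases also held peaks, and their heights relative to abundance varied widely. The 3 scaffold genes of the multi-synthetase complex all held a peak and a deletion site: Aimp1 at 198 RPKM with a log2 ratio of 0.91, Aimp2 at 44.1 RPKM with 3.28 and Eef1e1 at 71.0 RPKM with 2.07. Of 14 partner and editing genes 13 were listed, all 13 held a peak and 5 a deletion site, with a median log2 ratio of 2.68. Over protein-coding genes 96.6% held a peak and 37.0% a site, so the partner and editing genes lay near that background. Of these Eef1a1, which delivers the charged tRNA, stood at 4449 RPKM with a log2 ratio of -1.98, Eef1b2 at 631 RPKM with 1.64 and Eef1g at 169 RPKM with -0.43. Gatb was not listed under that symbol.

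All 16 genes of the ATF4 amino-acid response held a peak and 14 a deletion site, with a median of 154 RPKM and a median log2 ratio of 2.52. Over protein-coding genes 96.6% held a peak, 37.0% held a site and the median log2 ratio was 2.78, and at 100 RPKM and above 78.0% held a site and the median was 1.73. The most abundant were Atf4 itself at 810 RPKM with a log2 ratio of -0.02, asparagine synthetase Asns at 374 RPKM with 1.97, and Psat1, an enzyme of serine synthesis, at 356 RPKM with 4.47. The tallest peak lay in the 3' UTR in 11 of 16 of these genes, against 30 of 36 synthetase genes, 90.2% of protein-coding genes and 84.3% of those at 100 RPKM and above. The cytosolic synthetase median of 2.23 lay below, and the mitochondrial median of 2.68 above, that of the response genes.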

How the data were processed

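Peaks and deletion sites stood for 3 PABPC1 CLIP-seq samples and RPKM for 2 mRNA-seq samples, all merged by the authors, so no value per replicate could be had. The authors' RPKM were used as deposited; genes at 0 are not listed, and 18059 of 18349 identifiers matched the annotation. As a check, 100% of 3560 genes under 200 reads gave whole reads within 0.01. The deposited peak score, the authors' own value with no stated meaning, was read as height in tags and not as the number of all tags in a peak. The deposited count at each deletion site is the tags with a deletion, and a second number was read as the tags covering it. Per the submitters' processing notes, cutadapt 1.4.2, Novoalign 3.02.02, TopHat2 2.0.12, HTSeq 0.6.0 and mm10 were used; the peak caller, its threshold and the strandedness of the counting are not given in the sources used here, so reads of overlapping genes may be shared.

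Sites were placed by strand on GENCODE M21 basic transcripts, 1-based, peaks by midpoint, in the order 3' UTR, 5' UTR, CDS, intron where transcripts disagreed. The scale log2((summed height + 1)/(RPKM + 1)) understates the ratio of low genes, and height, unlike RPKM, is not per length. Backgrounds were protein-coding genes with RPKM of at least 1. Motifs were read on the mRNA strand within 20 nt, poly(A) signals within 50 nt. Shared sequence was counted in 31-nt words of annotated transcripts. The placement and ratios were tested on simulated data (Python 3.11.15, numpy 2.4.6, pandas 2.3.3, scipy 1.17.1).

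Members, lists and subgroups were chosen with earlier results of these data known. Named in full were the 8 members with the greatest summed height, the 5 highest and lowest log2 ratios and every member with a deletion site, and of other lists the 3 highest RPKM. The other list genes named, and the CDS sequences, were chosen after their values were seen. A marker gene and 2 CDS sequences are not reported here. Alternatives changed the pseudocount, the RPKM and height minimums, the region order, height per kb, the tallest peak in place of the sum, introns, site minimum and signal window.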

Additional observations from a re-analysis of the deposited data

How the results depend on the processing

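The median log2 ratio of cytosolic genes was 2.23 and moved to 1.56 with the tallest peak in place of the sum, 0.78 with height per kb of exons and 1.54 with peaks wholly inside the gene span, an alternative chosen after seeing the data. The mitochondrial median of 2.68 moved to 0.89 per kb, and was 1.88 with the tallest peak and 1.70 with peaks wholly inside the span. The cytosolic minus the mitochondrial median was -0.45, and 0.099 with peaks of at least 74 tags. The cytosolic minus the protein-coding median was -0.55, -0.06 with no RPKM minimum and 1.05 with peaks of at least 74 tags, which 55.3% of protein-coding genes have. The 3' UTR share of synthetase peaks was 20.7%, 55.2% among peaks of at least 74 tags and 68.2% by height. The 81 deletion sites became 53 when sites within 10 nt were joined, and poly(A) signals within 20 nt lay at 48.5% of 3' UTR sites. The share of synthetase genes with a peak stayed between 91.7% and 100%.

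Leaving out each replicate was not run, because the authors merged the samples. No paired analysis was possible because no value belongs to a single replicate. Low genes such as Ears2 rest on peaks of a few tags, and a gene without a deletion site is not shown to lack contact.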
